A study of Mus musculus with 12 samples.

Results

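RNA bound to GFP-tagged ribosomes was compared with the RNA of the surrounding arcuate tissue in adult mice, at postnatal day 60 (P60). The comparison used 6 of the 12 libraries of the series, chosen by their labels: 3 pull-downs and 3 supernatants, with the pull-down and the supernatant of the same replicate number taken as a pair. It was made across all genes, and 14444 of 19878 genes had enough counts to be tested. Every group carried the same genotype, Pomc-CreERT2; Rosa26-eGFPL10a on a C57BL/6 background, and no group lacked the tag or the Cre, so the supernatant is the only reference for the pull-down. In these mice a tamoxifen-activated Cre recombinase is made from the Pomc-CreERT2 transgene, and cells in which it has been active carry GFP on the ribosomal protein L10a. The tag therefore marks the cells in which Cre was made and active when tamoxifen was given, which may include cells that no longer express Pomc. The adults received tamoxifen by injection on consecutive days shortly before P60. How many mice went into a library was not stated. GEO lists the tissue as hypothalamus, and the arcuate nucleus was cut from thick coronal slices. The other 6 libraries are the same fractions from pups at postnatal day 12 (P12), and they enter only where the enrichment at P60 was set against that at P12. Those pups also received tamoxifen on consecutive days, in the days before P12, with a shorter interval from the last dose to P12 than the adults had to P60.

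Translating ribosome affinity purification (TRAP) captures messenger RNA while ribosomes are loaded on it, so an mRNA that is made and translated in the tagged cells gains in the pull-down, and an RNA that is made elsewhere or is not translated is diluted. Neurons that express proopiomelanocortin (POMC) lie in the arcuate nucleus at the base of the hypothalamus. They cut the prohormone into melanocyte-stimulating hormone and beta-endorphin, respond to leptin, insulin and glucose, and lower food intake, while their neighbours that make agouti-related peptide (AGRP) and neuropeptide Y raise it.

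Pomc gives the Cre transgene its name and is the gene with the largest change among abundant genes, so its upstream sequence is shown. The 250 bases before its start in the RefSeq table for GRCm38.p6 lie at chr12:3954695-3954944 on the plus strand and are given 5′ to 3′, with the letters of 2 searched motifs in capitals.
Pomc promoter: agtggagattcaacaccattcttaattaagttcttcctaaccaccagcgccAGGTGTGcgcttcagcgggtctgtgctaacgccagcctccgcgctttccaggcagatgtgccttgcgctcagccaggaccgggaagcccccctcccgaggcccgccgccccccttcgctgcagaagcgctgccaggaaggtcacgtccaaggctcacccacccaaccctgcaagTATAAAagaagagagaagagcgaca
The capitals mark AGGTGTG, letters bound by T-box factors, searched on both strands, whose first base lay 199 bases before the start, and TATAAA, the letters of a TATA box, searched on the gene's strand, whose first base lay 25 bases before it. These letters occurred in 1677 (5.1%) and 2494 (7.59%) of 32851 upstream sequences of the same length. The matches do not overlap each other and describe letters only. The paper also names the Pomc neuronal enhancers nPE1 and nPE2, which were not examined here. Whether the bases shown drive the Cre or Pomc in these cells was not tested.

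Total counts were 10791980 to 18774445 in the pull-downs and 16143825 to 22422476 in the supernatants. Pull-downs held counts for 14482 to 14724 genes and supernatants for 17023 to 17256, and at a common depth of 10000000 counts the expected numbers were 14360 to 14707 and 16749 to 16898. The log2 values of any pair of supernatants correlated more closely across genes (Pearson's r 0.9925 to 0.9935) than those of any pair of pull-downs (0.931 to 0.934). Rn45s, the ribosomal RNA precursor that the depletion aims to remove, took 1.55% to 4.99% of supernatant counts and 1.68% to 5.57% of pull-down counts, and within each pair the 2 fractions were close. In pull-down 1 the 10 most abundant genes took 6.38% of counts against 11.9% and 13.2% in pull-downs 2 and 3. The study describes its replicates as biological and from independent experiments, and the p-values measure the spread between these samples. In bulk tissue, fewer cells of a type and less RNA per cell cannot be told apart.

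Of the 14444 genes, 1027 were higher in the pull-down (7.11%) and 655 were lower (4.53%), with an adjusted p under 0.05 in edgeR's quasi-likelihood test with the replicate number as a block. The median log2 fold change over all tested genes was -0.10. Of the genes called higher, 342 had a log2 fold change over 1, 55 over 2 and 20 over 3, and 1011 were higher in 3 of 3 pairs. Of the genes called lower, 207 fell by more than 1 on the log2 scale, 46 by more than 2 and 21 by more than 3, and 645 were lower in 3 of 3 pairs. Genes called higher made up 38% of pull-down counts and 22.8% of supernatant counts, while genes called lower made up 4.94% and 11.6%. The split depended on the scaling. With library size alone in place of TMM factors the median moved by -0.22 and the counts became 614 higher and 1789 lower, so directions below are relative to the TMM scale. The counts also depended on replicates 2 and 3. Without replicate 2 the counts were 672 higher and 396 lower, and without replicate 3 they were 563 and 275.

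**Figure D1:**
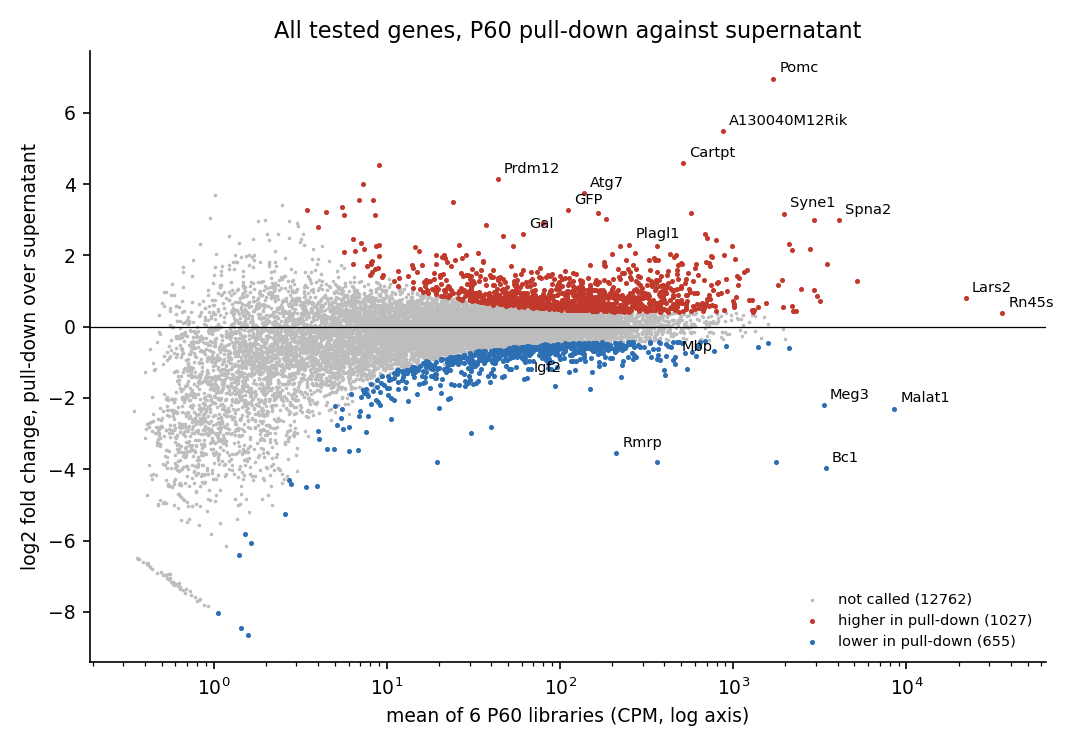
Each point is a gene tested at P60, with its mean over 6 libraries in CPM on a log axis and its log2 fold change of pull-down over supernatant on the vertical axis. Red points are the 1027 genes called higher, blue points the 655 called lower and grey points the 12762 not called. Pomc stands at the top and Bc1, Malat1 and Meg3 are the abundant RNAs at the bottom. The grey streak at lower left holds genes with no count in any of the 3 pull-downs, whose fitted values depend on the prior count.

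Pomc and the tag were examined first. Levels are given as CPM, the counts of a gene scaled to a common library total. Pomc reached 3077, 2530 and 4510 CPM in pull-downs 1 to 3, against 26.1, 18.4 and 60.3 CPM in the supernatants of the same numbers. The lowest pull-down was far above the highest supernatant, and replicate 3 was the highest in both fractions. The log2 fold change of 6.96 ± 0.19 (SE, adjusted p = 9.42e-27) was the largest of the called genes with a mean of at least 5 CPM. GFP, the sequence of the tag, had 256, 152 and 184 CPM in the pull-downs and 26.2, 27.1 and 18.2 CPM in the supernatants, again without overlap, for a log2 fold change of 3.26 ± 0.18 (adjusted p = 3.04e-17). GFP was thus 9.58-fold and Pomc 124-fold higher in the pull-down. Both calls held in all 12 alternative settings, including each replicate left out.

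Peptide genes that POMC neurons are known to make beside Pomc formed a list of 9. Of these, 4 were higher (44.4%, against 7.11% of all tested genes), none was lower and 5 were not called. This list and the later ones were chosen with earlier results of these data known, so their shares are no test of a class. Cartpt encodes the anorexigenic peptide CART. It had 1047, 881 and 1002 CPM in the pull-downs and 47.3, 38 and 59.5 CPM in the supernatants, a log2 fold change of 4.58 ± 0.16 (adjusted p = 5.5e-23) with a gap between the groups. Gal, which encodes galanin, stood at 115, 87.8 and 103 CPM against 18.5, 18.2 and 22.6 CPM (2.59 ± 0.19, adjusted p = 3.1e-13). Pdyn, the precursor of dynorphin, had 32.1, 27.2 and 11.7 CPM against 5.39, 5.53 and 5.33 CPM, so that all pull-downs lay above all supernatants but pull-down 3 was the lowest of them (2.24 ± 0.36, adjusted p = 1.82e-05). Vgf, a granule protein that is cut into several peptides, had 318, 208 and 287 CPM against 101, 80.4 and 87 CPM (1.81 ± 0.15, adjusted p = 6.49e-12). These 4 calls held without each replicate in turn. The median of the list was -0.25 (-0.47 with library size alone), and its largest negative value among the 5 uncalled members was -2.07.

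Transcription factors tied to the POMC fate showed a split. Of 17 tested, 6 were higher (35.3%) and none was lower, with a median log2 fold change of 0.46, and the same count of 6 was obtained without each replicate in turn. Prdm12, a zinc finger factor required for Pomc expression in mice, had 116, 70.6 and 59.8 CPM in the pull-downs and 5.63, 4.33 and 5.88 CPM in the supernatants (4.14 ± 0.24, adjusted p = 3.36e-16). Sox3, a factor of neural progenitors and of the developing hypothalamus and pituitary, had 71.1, 33.7 and 27.4 CPM against 3.69, 3.97 and 4.77 CPM (3.51 ± 0.32, adjusted p = 5.95e-11). Tbx3, a T-box factor of the arcuate region, had 145, 132 and 135 CPM against 26, 18.2 and 20.1 CPM (2.92 ± 0.18, adjusted p = 2.4e-15). For each of these 3 genes every pull-down lay above every supernatant, and pull-down 1 was the highest in each.

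The homeodomain factors Six6 and Six3, which act in eye, forebrain and pituitary development, were also higher. Six6 had 35.8, 21.8 and 39.1 CPM in the pull-downs and 10.7, 7.54 and 10.3 CPM in the supernatants (1.96 ± 0.29, adjusted p = 3.47e-06). Six3 had 153, 92.5 and 93 CPM against 42.2, 40 and 41.1 CPM (1.64 ± 0.18, adjusted p = 6.82e-09). Stat3, the factor that carries the leptin signal to the nucleus, had 163, 150 and 109 CPM against 69.4, 66.7 and 57.6 CPM (1.33 ± 0.16, adjusted p = 6.6e-08). Isl1 and Nkx2-1, which the paper names beside Prdm12 as required for POMC identity, were not called. Isl1 had 34.4, 18.7 and 44.7 CPM in the pull-downs, which spanned its 24.6 to 27.6 CPM in the supernatants (0.47 ± 0.26, adjusted p = 0.273). Nkx2-1 had 64.1, 38.7 and 42.3 CPM against 49.3, 38.8 and 38.7 CPM (0.39 ± 0.20, adjusted p = 0.243).

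Transcription factors of other hypothalamic neurons went the other way. None of 28 was higher, 3 were lower (10.7%, against 4.53% of all tested genes), and the median was -0.85. Pou3f2, a POU factor of neuroendocrine neurons of the paraventricular nucleus, had 24.2, 43.3 and 28.9 CPM in the pull-downs and 75.5, 88.5 and 74.5 CPM in the supernatants (-1.12 ± 0.20, adjusted p = 8.81e-05). Otp, which specifies neuroendocrine and arcuate neurons, had 15.5, 9.96 and 5.47 CPM against 28.9, 28.8 and 27.2 CPM (-1.33 ± 0.32, adjusted p = 0.00343), and its call was lost without replicate 3 (adjusted p = 0.109). Sim1 of the paraventricular nucleus had a log2 fold change of 0.02 ± 0.28 and Nr5a1 of the ventromedial nucleus one of -0.90 ± 0.50, and neither was called.

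**Figure D2:**
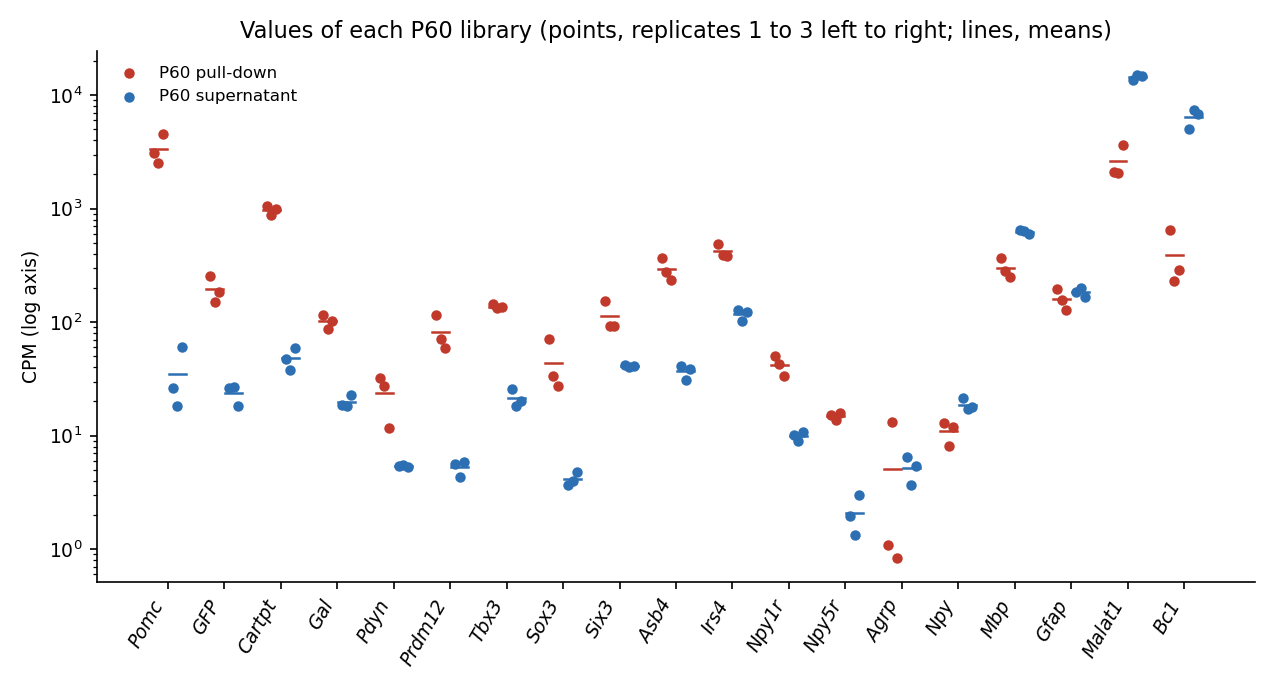
CPM on a log axis of 19 genes in each P60 library, with replicates 1 to 3 from left to right within a group and lines at the group means. For Pomc, GFP, Cartpt, Gal, the transcription factors, Asb4, Irs4 and the neuropeptide Y receptors every pull-down (red) lies above every supernatant (blue), for Mbp, Malat1 and Bc1 every pull-down lies below, and for Agrp and Gfap the groups overlap.

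Neighbouring neurons of the arcuate nucleus gave mixed lists. Agrp, which marks the AGRP neurons, had 1.09, 13.2 and 0.834 CPM in the pull-downs and 6.45, 3.7 and 5.45 CPM in the supernatants (-1.05 ± 0.93, adjusted p = 0.555). Pull-down 2 alone was above the supernatants, and the other pull-downs were below them. Npy had 12.8, 8.15 and 12 CPM against 21.5, 17 and 17.8 CPM (-0.57 ± 0.34, adjusted p = 0.331), with every pull-down below every supernatant. Of 12 tested genes of the AGRP and NPY list 2 were higher and 2 were lower (16.7% each), and the median was -0.60. The shares of all tested genes were 7.11% and 4.53%. The 2 higher were Serpina3n, a protease inhibitor gene with 123, 52.1 and 86.2 CPM against 14.4, 23.7 and 23 CPM (2.26 ± 0.24, adjusted p = 3.26e-09), and Npy2r, which is described with the receptors. The 2 lower were Otp, already counted above among factors of other hypothalamic neurons, and Sst, which encodes somatostatin. Sst had 55.3, 53.8 and 47.3 CPM against 96.4, 92.8 and 91.7 CPM (-0.62 ± 0.18, adjusted p = 0.0139; 0.182 without replicate 3). In the single-cell data of the paper, cells with Sst and cells with Agrp were largely distinct. Without replicate 3 no gene of the list was lower.

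The list of kisspeptin, neurokinin B and dynorphin (KNDY) neurons had 2 of 9 higher and 2 lower (22.2% each, against 7.11% and 4.53% of all tested genes). The counts were 1 and 1 without replicate 1 or without replicate 2, 1 and 0 without replicate 3, and 0 and 0 in the fit over all 12 libraries. Pdyn, above, is shared with POMC neurons. Kiss1 was too low to be tested, with at most 0.434 CPM in any library, and Tac2, the precursor of neurokinin B, had a log2 fold change of -0.55 ± 0.49 without a call. Tacr3, the receptor of neurokinin B, had 2.76, 0.746 and 0.649 CPM in the pull-downs and 9.85, 9.95 and 7.06 CPM in the supernatants (-2.75 ± 0.78, adjusted p = 0.015). Its call was lost without replicate 2 (adjusted p = 0.094) and without replicate 3 (0.0749). Peptides of other hypothalamic neurons were not higher in any of 18 cases, and 4 were lower with the block (22.2%), although none was without it. Pmch, the precursor of melanin-concentrating hormone of the lateral hypothalamus, had 45.8, 24.1 and 35.4 CPM against 63.1, 53.8 and 89.1 CPM (-0.76 ± 0.20, adjusted p = 0.00973). Without the block its adjusted p was 0.0814, and without replicate 3 it was 0.243. Avp, Oxt, Ghrh and Hcrt, which encode vasopressin, oxytocin, growth hormone releasing hormone and orexin, had log2 fold changes of -0.57, -0.50, -0.63 and -0.43 and were not called.

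Of 16 tested enzymes that cut and amidate prohormones, 3 were higher (18.8%, against 7.11% of all tested genes) and none was lower. The median was 0.21 (-0.01 with library size alone), and none was called without replicate 3. Pcsk1, the convertase that opens POMC, had 23.4, 35.5 and 37.2 CPM in the pull-downs and 18.9, 19.1 and 19.9 CPM in the supernatants (0.93 ± 0.26, adjusted p = 0.0149; 0.136 without replicate 2 and 0.174 without replicate 3). Pcsk1n, which encodes the inhibitor proSAAS, had 1404, 991 and 1085 CPM against 959, 806 and 836 CPM (0.63 ± 0.14, adjusted p = 0.000961; 0.0849 without replicate 3). The second convertase Pcsk2 (0.30 ± 0.16), the carboxypeptidase Cpe (0.19 ± 0.14) and the amidating enzyme Pam (0.25 ± 0.14) were abundant in both fractions and not called.

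Proteins of the dense-core granule, the vesicle that stores peptides, were higher in 9 of 17 cases (52.9%) and lower in 1, with a median of 0.43. With library size alone the counts were 4 and 3, and without replicate 3 they were 4 and 0. Beside Vgf, the largest changes were in Baiap3 and Ptprn. Baiap3, which acts in granule trafficking and release, had 698, 861 and 774 CPM in the pull-downs and 353, 296 and 306 CPM in the supernatants (1.51 ± 0.15, adjusted p = 5.72e-10). Ptprn, a transmembrane protein of the granule, had 640, 429 and 544 CPM against 307, 254 and 285 CPM (1.14 ± 0.14, adjusted p = 9.75e-08). Syt4, a synaptotagmin of peptide vesicles, was higher by a log2 fold change of 0.76 ± 0.15. Not every granule gene followed, since Chga, which encodes chromogranin A, had -0.31 ± 0.15 (adjusted p = 0.199), and Syt7, a calcium sensor, was lower at -0.60 ± 0.15 (adjusted p = 0.00411; 0.0952 without replicate 3).

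Leptin and insulin signalling genes were higher in 9 of 26 cases (34.6%) and lower in 1. Their median was 0.04 (-0.18 with library size alone), and 16 were not called. Asb4, a ubiquitin ligase adaptor of the arcuate nucleus, led with 369, 277 and 236 CPM in the pull-downs and 40.7, 31 and 39 CPM in the supernatants (3.20 ± 0.17, adjusted p = 5.78e-18). Socs3, the feedback inhibitor that leptin induces, had 18.9, 13.9 and 10.7 CPM against 3.05, 3.3 and 3.72 CPM (2.30 ± 0.47, adjusted p = 0.000579). Irs4, a hypothalamic adaptor of the insulin receptor, had 491, 394 and 383 CPM against 127, 102 and 123 CPM (2.07 ± 0.15, adjusted p = 1e-13). In each of the 3 genes the groups did not overlap and pull-down 1 was the highest. Irs2, another adaptor, rose by a log2 fold change of 1.06 ± 0.15, and Mtor, the kinase that senses nutrients, by 0.96 ± 0.17.

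The receptors themselves were not called. Lepr, the leptin receptor, had 7.54, 16 and 3.8 CPM in the pull-downs and 5.45, 6.91 and 4.96 CPM in the supernatants, so that pull-down 3 was below all supernatants and the others above them (0.67 ± 0.52, adjusted p = 0.492). Insr, the insulin receptor, had 31, 45.1 and 36.2 CPM against 60, 52.8 and 56.9 CPM (-0.38 ± 0.21, adjusted p = 0.282).

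Of 41 tested neuropeptide receptor genes 4 were higher (9.76%, against 7.11% of all tested genes) and 1 was lower (2.44%, against 4.53%). The list median was -0.05, and 3 of the 4 higher bind neuropeptide Y. Npy1r had 49.9, 43.2 and 33.8 CPM in the pull-downs and 10.1, 9.01 and 10.8 CPM in the supernatants (2.30 ± 0.27, adjusted p = 3.52e-08). Npy5r had 15.3, 13.6 and 15.8 CPM against 1.94, 1.34 and 2.97 CPM (3.13 ± 0.50, adjusted p = 1.41e-05). Npy2r, which AGRP neurons are also known to carry, had 26.4, 36.2 and 36.6 CPM against 10.9, 9.32 and 8.36 CPM (2.01 ± 0.29, adjusted p = 3.08e-06). For all 3 receptors the lowest pull-down was above the highest supernatant, and the calls held without each replicate. The other was Prokr1, a prokineticin receptor, with 7.69, 6.76 and 15.2 CPM against 0.762, 0.981 and 1.55 CPM (3.35 ± 0.69, adjusted p = 0.000569; 0.0612 without replicate 3). The melanocortin receptors Mc3r and Mc4r were at most 7.47 and 2.69 CPM in any library and were not called.

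Receptors for amines, acetylcholine, purines and cannabinoids were not higher in any of 34 cases. Of these, 2 were lower (5.88%, against 4.53% of all tested genes). Adora1, an adenosine receptor, had 41.1, 46.2 and 46.8 CPM in the pull-downs and 94.6, 90 and 84.1 CPM in the supernatants (-0.78 ± 0.18, adjusted p = 0.00269). Htr2c, the serotonin receptor through which POMC neurons are known to respond, had a log2 fold change of -0.45 ± 0.20 (adjusted p = 0.17), and the cannabinoid receptor Cnr1 had -0.59 ± 0.20 (adjusted p = 0.0509). Nuclear receptors were lower in 6 of 27 cases (22.2%, against 4.53% of all tested genes) and higher in none. Nr1d2 and Rorb, which also belong to the clock list, were lower at -0.73 ± 0.15 and -0.71 ± 0.16, and the estrogen receptor Esr1 had 0.63 ± 0.33 without a call. Without replicate 3 the nuclear receptors called lower were 2.

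Fuel handling was among the lists with many higher genes. Of 35 genes of glucose and lipid metabolism 12 were higher (34.3%), 1 was lower, and the median was 0.30. Fasn, fatty acid synthase, had 701, 1418 and 1029 CPM in the pull-downs and 376, 327 and 306 CPM in the supernatants (1.82 ± 0.17, adjusted p = 2.46e-10). Every pull-down was above every supernatant, with pull-down 2 the highest. Hk1, the common brain hexokinase, rose by 1.34 ± 0.16, Ldha, a lactate dehydrogenase subunit, by 1.04 ± 0.15, and Acly, which supplies acetyl-CoA, by 1.03 ± 0.16. Scd1, a fatty acid desaturase, was lower at -0.88 ± 0.22 (adjusted p = 0.00435), a call lost without replicate 1 (0.0603) and without replicate 3 (0.0739). Without replicate 3 the list had 7 genes higher.

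Oxidative phosphorylation genes encoded in the nucleus did not share this. Of 75 tested, 5 were higher (6.67%, against 7.11% of all tested genes) and 1 was lower, with a median of 0.03 that was -0.19 with library size alone. Ndufs1, the largest subunit of complex I, was the clearest at 151, 250 and 231 CPM against 131, 130 and 125 CPM (0.90 ± 0.16, adjusted p = 8.16e-05), and without replicate 3 it alone was left as higher. Sterol genes had 1 of 27 higher (3.7%) and 2 lower (7.41%). Chaperones and stress genes of the endoplasmic reticulum had 2 of 31 higher (6.45%), Hspa5 and Pdia6. Both calls were lost without replicate 3 (adjusted p = 0.305 and 0.297).

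Genes that make and carry the fast transmitters GABA and glutamate moved in both directions. Gad1, which makes GABA, had 559, 687 and 537 CPM in the pull-downs and 320, 281 and 257 CPM in the supernatants (1.28 ± 0.15, adjusted p = 2.69e-08), with no overlap. Gad2, the other GABA-synthesizing enzyme, rose less, at 542, 493 and 436 CPM against 408, 409 and 386 CPM (0.51 ± 0.14, adjusted p = 0.0105; 0.16 without replicate 3 and 0.0774 without replicate 2). The vesicular transporters of GABA and glutamate, Slc32a1 (-0.23 ± 0.17) and Slc17a6 (-0.09 ± 0.15), were not called. In all, 3 of the 14 genes were higher (21.4%, against 7.11% of all tested genes) and 2 were lower (14.3%, against 4.53%). The counts were 1 and 5 with library size alone, and 1 and 1 without replicate 2 or without replicate 3.

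Dopamine genes gave 3 of 12 higher (25%, against 7.11% of all tested genes) and none lower, with a median of 0.03 (-0.20 with library size alone). Only 1 was higher without the block, without replicate 2 or without replicate 3. Th, tyrosine hydroxylase, had 127, 152 and 80.6 CPM in the pull-downs and 99.4, 115 and 73.5 CPM in the supernatants. The groups overlapped, yet each pull-down was above its own supernatant, and the 2 fractions kept the same order of replicates (0.52 ± 0.16, adjusted p = 0.0226). Without the block the adjusted p was 0.2, without replicate 2 it was 0.229 and without replicate 3 it was 0.118. Gch1, which makes the cofactor of Th, had 22.8, 20.6 and 19.6 CPM against 5.86, 10.7 and 9.29 CPM (1.54 ± 0.34, adjusted p = 0.00136), and the dopamine transporter Slc6a3 had -0.54 ± 0.21 (adjusted p = 0.101).

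Of 19 GABA-A and glycine receptor subunits 1 was higher (5.26%) and 2 were lower (10.5%), and of 24 glutamate receptor subunits 1 (4.17%) and 2 (8.33%). Of 33 potassium channel genes 1 was higher and 1 was lower (3.03% each). The shares of all tested genes were 7.11% and 4.53%, and the medians of the 3 lists were -0.31, -0.26 and -0.17. With library size alone these counts were 1 and 6, 0 and 9, and 0 and 12, and without replicate 2 none of the 3 lists had a gene called higher. Kcnj11 and Abcc8, the pore and the sulfonylurea subunit of the ATP-sensitive potassium channel, had log2 fold changes of -0.86 ± 0.34 and 0.92 ± 0.50 and were not called. Among 36 sodium, calcium and TRP channel genes 6 were higher (16.7%) and 2 were lower (5.56%). With a coding length correction, chosen after seeing the data, these counts became 1 and 11. Without replicate 3 they were 2 and 0. Ryr2, the calcium release channel, had 279, 553 and 497 CPM in the pull-downs and 218, 172 and 199 CPM in the supernatants (1.35 ± 0.18, adjusted p = 4.64e-07). Trpc5, a channel through which leptin is known to excite POMC neurons, had 0.08 ± 0.28. Of 36 genes of the presynaptic release machinery 6 were higher and 6 were lower (16.7% each). These counts were 3 and 3 without replicate 2 and 2 and 1 without replicate 3. Unc13a, the vesicle priming factor, rose at 251, 468 and 376 CPM against 156, 132 and 144 CPM (1.53 ± 0.17, adjusted p = 1.4e-08), and Cplx2, a complexin, fell at 357, 216 and 246 CPM against 580, 547 and 518 CPM (-0.82 ± 0.14, adjusted p = 6.07e-05). Of 24 postsynaptic genes 3 were higher and 3 were lower (12.5% each). Lrrc7 and Shank2 were among the higher at 0.95 ± 0.16 and 0.81 ± 0.15, and Nrgn, neurogranin, among the lower at -0.97 ± 0.16.

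**Figure D3:**
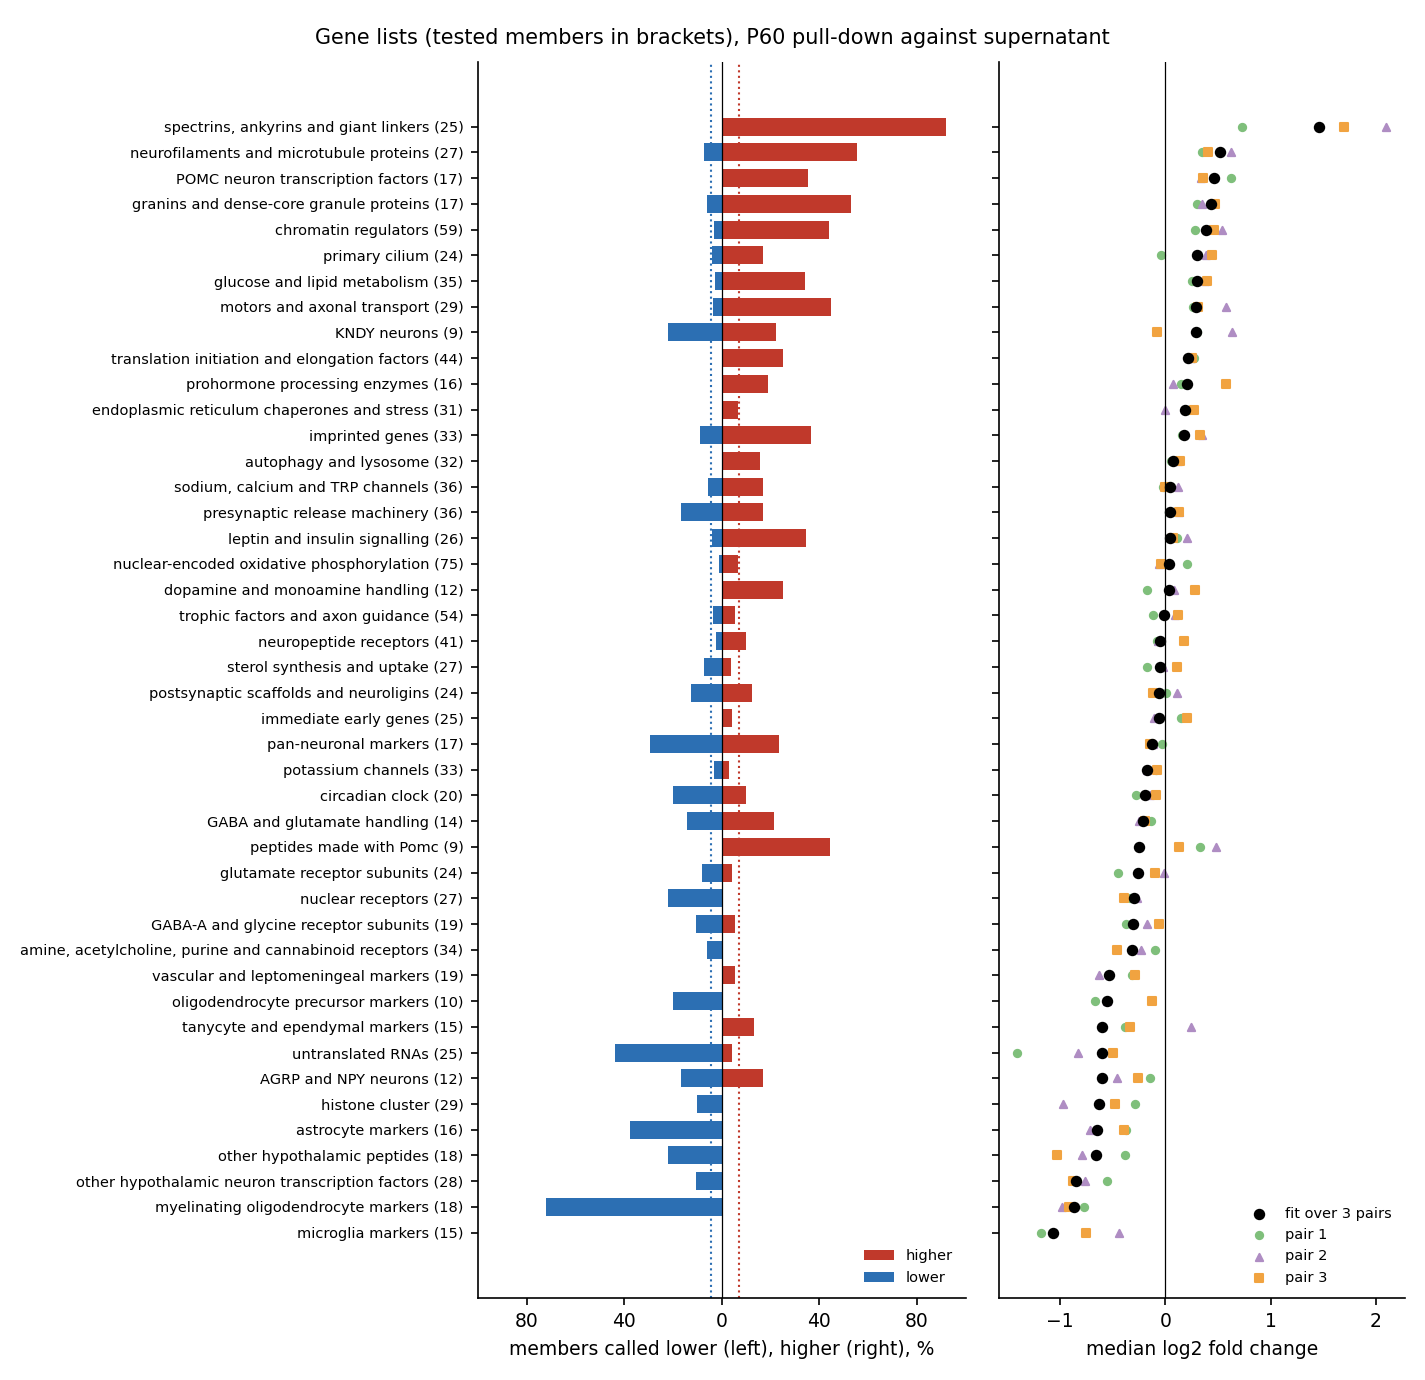
Gene lists with at least 9 tested members (number in brackets), ordered by median log2 fold change. The left panel gives the percent of tested members called lower (blue) and higher (red), with dotted lines at the 4.53% and 7.11% of all tested genes. The right panel gives the median log2 fold change over 3 pairs (black) and within each pair, which is computed from CPM with a prior count and so lies nearer to 0 for low genes. The spectrins and giant linkers stand furthest to the right, with pair 1 lowest at 0.73, and the glial lists stand to the left.

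The list with the highest share of calls was that of spectrins, ankyrins and giant linkers. These are long proteins that brace the membrane and connect it to actin, microtubules and the nucleus. The list, which also holds the dynein gene Dync1h1, was chosen with earlier results of these data known, so its share is no test of the class. Of 25 tested, 23 were higher (92%) and none was lower, with a median log2 fold change of 1.46. Summed over the list, the pull-downs held 26354 to 46324 CPM and the supernatants 9290 to 10294 CPM. The pairs differed in size, with medians of 0.73 in pair 1, 2.10 in pair 2 and 1.70 in pair 3. Spna2, alpha-II spectrin, had 5103, 9144 and 7073 CPM in the pull-downs and 970, 1016 and 1092 CPM in the supernatants (2.98 ± 0.15, adjusted p = 5.78e-18). Dync1h1, the heavy chain of dynein, had 2531, 6883 and 6018 CPM against 725, 644 and 726 CPM (2.99 ± 0.20, adjusted p = 8.77e-15). Syne1, the giant nesprin of the nuclear envelope, had 2946, 3929 and 3570 CPM against 481, 389 and 478 CPM (3.17 ± 0.16, adjusted p = 1.83e-18). In all 3 genes pull-down 1 was the lowest of the pull-downs and still above every supernatant. Plec, Spnb2 and Ank2, which encode plectin, beta-II spectrin and ankyrin B, rose by 2.42 ± 0.16, 2.31 ± 0.15 and 2.26 ± 0.15. With the coding length correction 15 members were higher, 1 was lower and the median was 0.51.

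Of 29 motor and transport genes 13 were higher (44.8%) and 1 was lower (3.45%). Of 27 neurofilament and microtubule genes 15 were higher (55.6%) and 2 were lower (7.41%). The shares of all tested genes were 7.11% and 4.53%. With the coding length correction the counts were 11 and 3 for the motor list and 14 and 4 for the filament list. The largest change among the motors was that of Dync1h1, above, which is also among the spectrins, ankyrins and giant linkers. Kif5a and Kif1a, kinesins of axonal transport, rose by 1.05 ± 0.15 and 1.17 ± 0.15, and the myosins Myo18a and Myo5a by 1.59 ± 0.15 and 1.43 ± 0.16. Mtap1b, a microtubule-associated protein, had 4591, 9356 and 7459 CPM in the pull-downs and 3452, 3160 and 3257 CPM in the supernatants (1.28 ± 0.16, adjusted p = 1.21e-07). Nefm and Nefh, 2 neurofilament subunits, rose by 1.06 ± 0.15 and 1.08 ± 0.16. Mtap2, by contrast, was lower in the pull-down at 376, 395 and 422 CPM against 841, 812 and 812 CPM (-0.82 ± 0.14, adjusted p = 3.52e-05), with groups far apart. Its mRNA is known to travel into dendrites. Mapt, which encodes tau, had -0.15 ± 0.14 and was not called. Without replicate 3 the filament list had 6 higher and 2 lower, and the motor list 8 and 0.

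Chromatin regulators were higher in 26 of 59 cases (44.1%) and lower in 2, with a median of 0.39. The members were chosen with earlier results of these data known, so this share too is no test of the class. Arid1b, a subunit of the SWI/SNF remodeller, had 1046, 942 and 1026 CPM in the pull-downs and 130, 119 and 132 CPM in the supernatants (3.20 ± 0.15, adjusted p = 2.22e-19). Yeats2, a reader of acylated histones, had 426, 188 and 363 CPM against 50.5, 42.2 and 41.3 CPM (3.01 ± 0.17, adjusted p = 1.11e-16). Tnrc18, a chromatin protein with a trinucleotide repeat, had 957, 591 and 644 CPM against 216, 201 and 200 CPM (2.02 ± 0.15, adjusted p = 1.3e-13). The pull-downs of all 3 were above the supernatants by a wide margin. The corepressor Bcor rose by 1.60 ± 0.19. With the coding length correction 16 genes of the list were higher and 11 were lower. Translation initiation and elongation factors were higher in 11 of 44 cases (25%) and lower in none, with a median of 0.22 (-0.00 with library size alone), and Eif4g1 and Eif4g3, the scaffolds of the cap-binding complex, led at 1.76 ± 0.15 and 1.48 ± 0.15. Without replicate 3 the count was 5.

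Long coding sequences were frequent among the genes called higher. The median coding length was 2826 bases for genes called higher, 1263 for genes called lower and 1398 for genes not called. Across 10 groups of equal size by coding length, the share called higher ran from 2.91% in the shortest to 27.3% in the longest, which began at 3603 bases, while the share called lower was 6.55% and 3.58%. Long genes were also more abundant (median 57.6 CPM against 24.2 CPM), but among genes with a mean of at least 20 CPM the shares called higher were still 4.72% and 37.5%. The median log2 fold change of these abundant genes rose from -0.05 in the shortest group to 0.33 in the longest. The pairs were not alike in this. From the shortest to the longest group the median went from -0.16 to 0.54 in pair 2 and from -0.11 to 0.42 in pair 3, but from 0.14 to 0.11 in pair 1. Among the 54 tested genes with at least 12000 coding bases, Ttn, the titin gene, had 2.84, and Dst, Ubr4, Macf1, Mdn1 and Syne2 had 2.14, 1.90, 1.60, 1.40 and 1.19, all called. The cadherin Fat3 was lower at -0.86, and the active zone gene Pclo had -0.08 without a call. The part that coding length plays in the lists above was not tested beyond the correction already given.

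**Figure D4:**
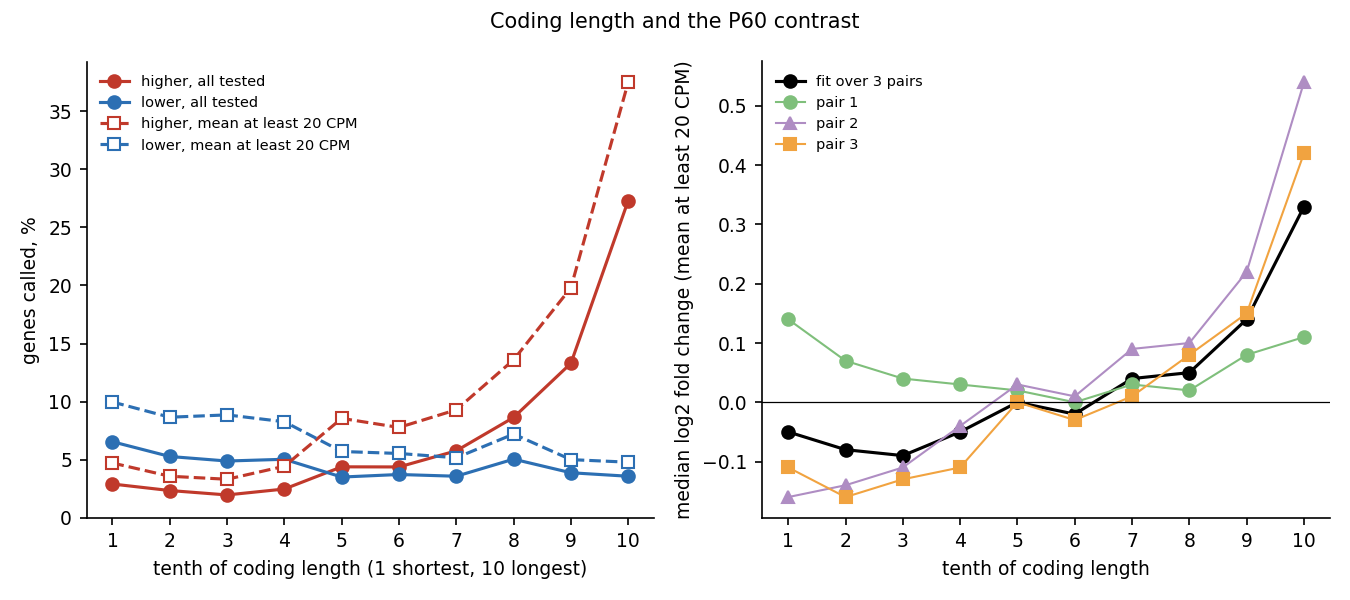
Tested genes in 10 groups of equal size by coding length, from the shortest (1) to the longest (10). The left panel gives the percent called higher (red) and lower (blue) among all tested genes (filled) and among genes with a mean of at least 20 CPM (open). The right panel gives the median log2 fold change of the latter over 3 pairs and in each pair, where pairs 2 and 3 rise to 0.54 and 0.42 and pair 1 ends at 0.11.

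Imprinted genes, which are expressed from 1 parental allele and are frequent in the hypothalamus, were higher in 12 of 33 cases (36.4%) and lower in 3, with a median of 0.18 that was -0.04 with library size alone. Plagl1, a zinc finger factor, had 472, 312 and 428 CPM in the pull-downs and 104, 82.7 and 98.1 CPM in the supernatants (2.30 ± 0.15, adjusted p = 4.62e-15). Peg3, a large zinc finger gene, had 4110, 5639 and 5814 CPM against 1829, 1705 and 1822 CPM (1.75 ± 0.14, adjusted p = 4.51e-12). Peg10, a gene derived from a retrotransposon, had 1204, 1227 and 1052 CPM against 371, 326 and 352 CPM (1.95 ± 0.14, adjusted p = 2.32e-13). In these 3 the groups were separate in every library. Magel2, a gene of the Prader-Willi region, rose by 1.21 ± 0.20, while Igf2, a growth factor made largely by the meninges and choroid plexus in the adult brain, was lower at 52.5, 21.8 and 23.8 CPM against 110, 96.4 and 83.3 CPM (-1.44 ± 0.20, adjusted p = 9.08e-07). Without replicate 3 the list had 6 higher and 4 lower.

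Several smaller themes carried few calls. Of all tested genes 7.11% were higher and 4.53% were lower. Atg7, the enzyme that starts the conjugation steps of autophagy, stood apart from its pathway with 298, 223 and 234 CPM in the pull-downs and 21.8, 22.7 and 20.4 CPM in the supernatants (3.75 ± 0.17, adjusted p = 7.09e-20). Of 32 autophagy and lysosome genes 5 were higher and none was lower, and the median was 0.07 (-0.16 with library size alone). The count was 2 without the block and 3 without replicate 2 or replicate 3. Primary cilium genes had 4 of 24 higher, led by Ift172 of the transport particle and Dync2h1 of its motor at 1.37 ± 0.21 and 1.24 ± 0.17, and 1 lower, with 2 higher without the block, without replicate 2 or without replicate 3. Immediate early genes had 1 of 25 higher (4%), Jun, at 184, 121 and 135 CPM against 104, 83.6 and 85.4 CPM (0.89 ± 0.15, adjusted p = 3.98e-05). Fos had 0.45 ± 0.31 without a call. Axon guidance and trophic genes had 3 of 54 higher (5.56%), with the adhesion molecule L1cam at 0.81 ± 0.15. The 2 lower (3.7%) were Ephb1, an ephrin receptor, and Fgf1, a growth factor. Only 1 was higher without the block or without replicate 3, and none was lower without replicate 2. Clock genes had 2 of 20 higher and 4 lower, with no clock gene higher without replicate 2 or without replicate 3. Genes high in the pull-down outside the lists were A130040M12Rik, a cDNA clone with 2122, 1407 and 1549 CPM against 38.8, 37.1 and 56.9 CPM (5.48 ± 0.18), the olfactory receptor Olfr1033 with 21.4, 11.6 and 18.1 CPM against 0.352, 0.847 and 1.49 CPM (4.53 ± 0.55), and Tnfrsf11b, which encodes osteoprotegerin, with 11.1, 12.7 and 21.2 CPM against 2.23, 0.892 and 1.42 CPM (3.56 ± 0.54). Counts of the clone may include reads of near-identical copies.

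On the lower side, RNAs that are not translated stood out. Of 25 tested, 11 were lower (44%, against 4.53% of all tested genes) and 1 was higher, and the median was -0.60. Bc1, a small cytoplasmic RNA of dendrites, had 647, 232 and 287 CPM in the pull-downs and 5057, 7369 and 6894 CPM in the supernatants (-3.97 ± 0.21, adjusted p = 1.35e-17). Rpph1 and Rmrp, the RNAs of ribonucleases P and MRP, were lower by similar amounts. Rpph1 had 290, 245 and 115 CPM against 2606, 3867 and 3468 CPM (-3.79 ± 0.19, adjusted p = 5.39e-18), and Rmrp had 33.6, 25.2 and 27.9 CPM against 455, 369 and 355 CPM (-3.54 ± 0.16, adjusted p = 1.19e-19). Malat1, a long RNA of nuclear speckles, had 2125, 2077 and 3611 CPM against 13539, 15084 and 14673 CPM (-2.30 ± 0.14, adjusted p = 2.4e-15). Meg3, a nuclear RNA of an imprinted locus, had 854, 860 and 1517 CPM against 5524, 5588 and 5602 CPM (-2.20 ± 0.15, adjusted p = 3.32e-14). Every pull-down of these 5 was below every supernatant, and none was at 0. By gene class, 2 of 548 tested long non-coding RNAs were higher and 26 were lower, a share near the 4.53% of all tested genes. Their median log2 fold change was -0.90, but they were low, at a median of 2.37 CPM. Of 13671 protein-coding genes 1006 were higher and 614 were lower, with a median log2 fold change of -0.08 and a median level of 24.3 CPM. Histone cluster genes, whose mRNAs lack a polyA tail, had none of 29 higher and 3 lower, with a median of -0.63. Among single genes outside the lists, Plau, which encodes urokinase, was lower at 1.09, 2.88 and 2.97 CPM against 40.8, 37.2 and 31.3 CPM (-3.81 ± 0.38, adjusted p = 7.86e-10).

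Markers of other cell types were lower or not called, with few exceptions. Of 18 markers of myelinating oligodendrocytes 13 were lower (72.2%) and none was higher, and their sum was 1453 to 1623 CPM in the pull-downs and 2927 to 3023 CPM in the supernatants. Mbp, myelin basic protein, had 369, 282 and 251 CPM against 652, 633 and 594 CPM (-0.85 ± 0.14, adjusted p = 2.28e-05), and every pull-down was below every supernatant. Of 16 astrocyte markers 6 were lower and none was higher (sum 727 to 782 CPM against 1132 to 1233 CPM), and Gfap, the intermediate filament of astrocytes, was level at 194, 156 and 127 CPM against 184, 199 and 167 CPM (0.00 ± 0.15, adjusted p = 0.994). Oligodendrocyte precursor markers had 2 of 10 lower (213 to 270 CPM against 363 to 393 CPM), and none of 15 microglia markers was called (26.5 to 34.7 CPM against 46.3 to 52.2 CPM), with 1 lower at an unadjusted p under 0.05 in edgeR and 2 lower by DESeq2.

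The exceptions were single members of the vascular and the tanycyte lists. Of 19 vascular markers 1 was higher (5.26%) and of 15 tanycyte and ependymal markers 2 were (13.3%), against 7.11% of all tested genes. No member was called lower, but the medians of these lists were -0.54 and -0.60. Their sums overlapped between the fractions, at 64.8 to 88.2 CPM in the pull-downs and 73.4 to 88.3 CPM in the supernatants for vascular and 133 to 173 CPM and 138 to 150 CPM for tanycyte and ependymal markers. The vascular gene Flt1, a receptor of vascular endothelial growth factor, was higher at 7.54, 9.69 and 17.4 CPM against 4.1, 1.65 and 2.23 CPM (2.36 ± 0.58, adjusted p = 0.00417; 0.186 without replicate 3), whereas the endothelial junction gene Cldn5 was at most 2.76 CPM and not called. Vim, the filament vimentin of tanycytes and other glia, was higher at 58.2, 65 and 73.1 CPM against 40.8, 42.5 and 32.8 CPM (0.98 ± 0.20, adjusted p = 0.000521; 0.0567 without replicate 3). Dnahc5, the other higher member of that list, had a log2 fold change of 1.72, and its call was lost without replicate 2 (0.0723). Rax, which defines tanycytes, was at most 5.34 CPM in any library and not called. The pituitary also expresses Pomc, and its markers summed to 9.54 to 25 CPM in the pull-downs and 15.4 to 19.2 CPM in the supernatants, with Prl at 0 counts in all pull-downs and Tbx19, the corticotroph factor, at 1.74, 0.373 and 2.22 CPM against 0.235, 0.535 and 0.372 CPM, too low to be tested. Pan-neuronal markers were divided, with 4 of 17 higher (23.5%) and 5 lower (29.4%, against 4.53% of all tested genes). These counts were 2 and 1 without replicate 3. The sum of these markers was 7437 to 8393 CPM in the pull-downs and 8893 to 8953 CPM in the supernatants. What part cells of other types or RNA bound without the tag play in these values was not tested.

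Where the adult enrichment stood against that of pups was tested as the difference of the 2 log2 fold changes over all 12 libraries. Of 15311 genes tested, 67 had a higher enrichment at P60 (0.438%) and 105 a lower one (0.686%). Of the 67, 47 were called higher at P60. Pomc was higher by 4.80 ± 0.41 at P60, Cartpt by 4.75 ± 0.32, Prdm12 by 6.40 ± 0.67, Gal by 3.69 ± 0.43 and Npy1r by 3.19 ± 0.63, and the tag itself by 2.08 ± 0.29. Prdm12 and Npy5r had at most 3.22 and 0.167 CPM in any P12 pull-down, so their fitted differences rest on few counts there. Of the 105 with a lower enrichment at P60, 59 were still called higher at P60, among them Arid1b (-2.28), Tnrc18 (-2.28), Bcor (-2.06), Yeats2 (-1.85), Ank2 (-1.39) and Plec (-1.38). The counts depended on single replicates, since without P60 replicate 3 they were 22 and 42 and without P12 replicate 3 they were 151 and 69. The tag had a log2 fold change of 1.15 ± 0.28 at P12 and 3.26 ± 0.18 at P60. Tamoxifen was also given at different ages and at different intervals before harvest. Age, the timing of tamoxifen and the yield of the capture therefore cannot be told apart in these differences of GFP-bound RNA.

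**Figure D5:**
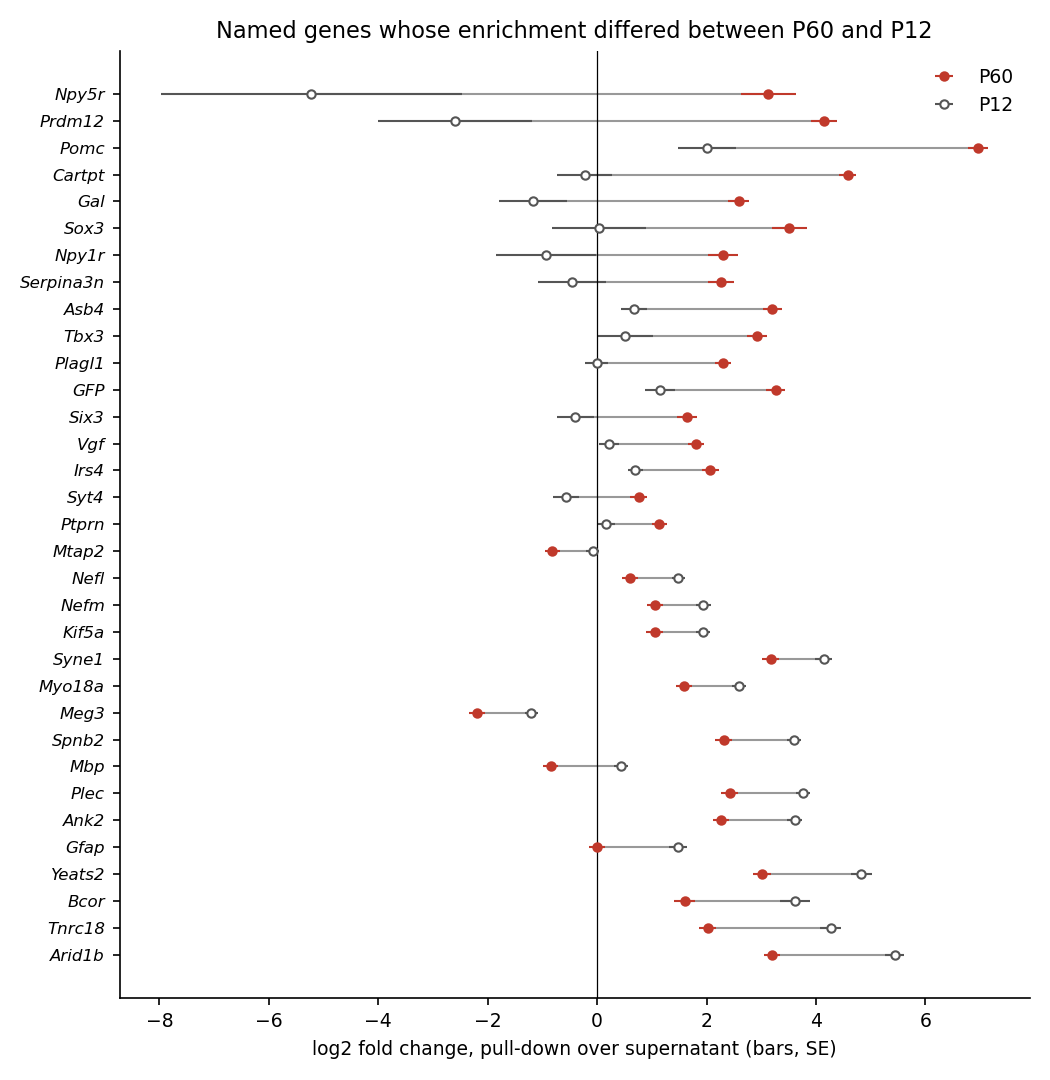
Log2 fold changes of pull-down over supernatant at P60 (filled) and P12 (open) with their SE, for the 33 named genes whose enrichment differed between the ages, ordered by the difference. Npy5r, Prdm12, Pomc, Cartpt and Gal at the top were more enriched at P60, and Arid1b, Tnrc18, Bcor and Yeats2 at the bottom were less enriched at P60 than at P12, where their values were also above 0.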

How the data were processed

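Lysate of P60 arcuate tissue was purified on beads with anti-GFP, and bound and remaining RNA gave ribosomal-RNA-depleted, stranded total RNA libraries (the labels also say polyA RNA). The deposited values are raw counts that the authors made with HTSeq after alignment to mm10 by TopHat2 2.0.13 and Bowtie2 2.2.1, for 19878 genes, with no normalization. The strand setting was not stated, so reads of overlapping and antisense genes cannot be told apart.

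The labels give the groups and the replicate numbers. Pull-down and supernatant of 1 number were taken as fractions of 1 lysate, since the study modelled paired samples. Across genes, the correlation of paired deviations was 0.0106 to 0.0416, under the 0.1 that would show a pairing, so the block rests on the study's model. Libraries of a group were no duplicates (chi-square per degree of freedom 9.464 to 88.97).

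The test was edgeR 4.0.16 in R 4.3.3 (TMM, filterByExpr, quasi-likelihood, replicate block, Benjamini-Hochberg adjusted p under 0.05). Ages were compared by an interaction over 12 libraries with replicates nested in age. Log2 fold changes are ± SE. On simulated P60 counts 58% of genes changed by 1 and 92% of genes changed by 2 on the log2 scale were called, and 6 of 13774 unchanged genes. The simulation gave both fractions the same spread at a given level, had no replicate effects and changed only genes above 5 CPM. In the data the pull-downs were less alike than the supernatants, so these shares do not give the power or error rate there. Alternatives were no block, DESeq2 size factors, library size alone, no filter, at least 1 CPM in 3 libraries, each replicate left out, a fit over 12 libraries, a transcript length correction, the Wald test of DESeq2 1.42.0 and, added after seeing the data, a coding length correction.

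Genes carry the table's older symbols. The 46 lists hold 1165 genes, of which 1152 were found. Lists, members and tests were chosen with earlier results of these data known, so the share of a list is no test of its class. Named were Pomc and GFP, the 15 called genes with the largest change in each direction (mean of at least 5 CPM, 1 direction in 3 of 3 pairs, clones and predicted genes only in the first 5), the anchors and up to 6 called members per direction of each list, and called genes among the 10 most abundant in the pull-down. Ttn, Dst, Ubr4, Macf1, Mdn1, Syne2, Fat3 and Pclo were named for coding length (GENCODE, mm10) after their values were seen. Genes of cytosolic ribosomal proteins and of the mitochondrial genome were not analysed here. A few genes that the rule names are not reported here.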

Additional observations from a re-analysis of the deposited data

Results flagged for a closer look

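For 33 named genes the test of the difference between ages, edgeR's interaction of age and fraction, passed an adjusted p of 0.05, and values are the log2 fold change of pull-down over supernatant at P60 less that at P12. Among the genes that define the cells, Pomc differed by 4.80, GFP by 2.08, Cartpt by 4.75, Gal by 3.69, Prdm12 by 6.40, Sox3 by 3.42, Tbx3 by 2.36 and Six3 by 1.99. Among granule, signalling and receptor genes, Vgf differed by 1.56, Ptprn by 0.93, Syt4 by 1.29, Asb4 by 2.49, Irs4 by 1.33, Npy1r by 3.19, Npy5r by 7.77, Serpina3n by 2.68 and the imprinted Plagl1 by 2.27. In the other direction, the cytoskeletal genes Ank2, Plec, Spnb2, Syne1, Myo18a, Kif5a, Nefl, Nefm and Mtap2 differed by -1.39, -1.38, -1.32, -1.0, -1.03, -0.93, -0.91, -0.91 and -0.78. The chromatin genes Arid1b, Tnrc18, Bcor and Yeats2 differed by -2.28, -2.28, -2.06 and -1.85. Meg3, a nuclear RNA, differed by -1.04, and the glial genes Gfap and Mbp by -1.51 and -1.33. The groups hold 3 libraries each, so no library was tested for standing apart within its group.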

How the results depend on the processing

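The number of genes called higher and lower at P60 (1027 and 655) moved by over 1.5 times with library size alone (614 and 1789) and in the fit over all 12 libraries (610 and 241), and with a replicate left out it ran from 563 to 1154 and from 275 to 683. Without the replicate block the counts were 895 and 486, and each pair's correlation was under 0.1. The difference between ages (67 higher and 105 lower at P60) became 115 and 65 with library size alone, 161 and 202 without the filter, and with a replicate left out 22 to 151 and 42 to 135, and without the replicate block it was 61 and 89. Of 221 named genes called at P60, 100 kept their call in all 12 alternative settings. Calls were lost for 41 without the block, 34 with library size alone, 20 without replicate 1, 58 without replicate 2 and 89 without replicate 3, and the cause was not tested.

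Of the 221 named genes called at P60 only Unc80 changed sign, to -0.05 with the coding length correction, which was chosen after seeing the data. The other changes of sign among named genes were in genes that were not called. With library size alone Sim1 was -0.20, Cpe -0.03, Scn2a1 -0.19, Trpc5 -0.14, Shank1 -0.10, Adcy3 -0.21, Ntrk2 -0.21 and Gfap -0.22. With the coding length correction Sim1 was -0.02, Scn2a1 -0.39, Trpc5 -0.03, Shank1 -0.33, Adcy3 -0.14 and Ntrk2 -0.04, and with the transcript length correction Scn2a1 was -0.03 and Ntrk2 -0.13. Without the replicate block Agrp was 0.27, Pdgfra 0.05 and Cldn5 0.11. Without the filter Gfap was -0.00, and in the fit over 12 libraries it was -0.01 and Adcy3 was -0.00. With a replicate left out the ranges were -0.07 to 0.14 for Adcy3, -2.44 to 0.01 for Agrp, -2.49 to 1.01 for Cldn5, -1.28 to 0.26 for Cx3cr1, -0.10 to 0.08 for Gfap, -0.26 to 0.09 for H2afz, -2.48 to 0.05 for Mc3r, -0.35 to 0.05 for Nr3c1, -0.08 to 0.10 for Ntrk2, -0.62 to 0.30 for Pdgfra, -2.37 to 0.58 for Rax, -0.07 to 0.13 for Scn2a1, -0.27 to 0.35 for Sim1, -0.26 to 0.05 for Slc17a6 and -0.17 to 0.35 for Trpc5. Where edgeR called no member of a list in 1 direction, DESeq2 called none either except 1 immediate early, 1 vascular and 2 microglia genes as lower, and the members at an unadjusted p under 0.05 in edgeR numbered 0 to 4 per list, the 4 being autophagy and lysosome genes with lower values. Of the tested genes, 50 had no count in any pull-down, and 3 of them were called lower.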

Other observations

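The 10 most abundant genes of the P60 pull-down were all called higher. Rn45s, the ribosomal RNA precursor, had 37683 CPM in the mean against 33906 CPM in the supernatant, and its call was lost without the block (adjusted p = 0.694), without replicate 2 (0.207), without replicate 3 (0.463) and with library size alone (0.343). Its level was 16766, 40598 and 55686 CPM in pull-downs 1 to 3 and 15484, 36375 and 49860 CPM in supernatants 1 to 3. Lars2, a mitochondrial leucyl-tRNA synthetase, had 26374 CPM against 17623 CPM (log2 fold change 0.79), and its call was lost without the block (0.126) and without replicate 3 (0.174). It ranked next to Rn45s in the pull-down, and whether all reads counted under Lars2 came from its mRNA was not tested. Gprasp1, which sorts G-protein-coupled receptors, had 4472 CPM against 1105 CPM (2.19), and the chaperones Hsp90ab1 and Hspa8 had 3709 against 2372 CPM (0.87) and 3708 against 2622 CPM (0.72).

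Genes of low GC content were more often lower in the pull-down. In the tenth of tested genes with the lowest GC content 8.92% were called lower and 3.76% higher, and in the tenth with the highest 1.62% were lower and 7.94% higher, with medians of -0.29 and 0.03.

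Atg7 was also higher in the pull-down at P12, by a log2 fold change of 3.05, and its enrichment did not pass the test of the difference between ages.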
